A study of Drosophila melanogaster with 8 samples.

Results

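Integrins are the receptors through which epithelial and muscle cells hold on to the extracellular matrix. This report follows the 10 Drosophila genes that encode integrin subunits and the proteins that couple them to actin: the beta subunits mys and Itgbn, the alpha subunits if, mew and scb, and the linkers rhea, Vinc, Ilk, parvin and stck. They were chosen by name, with earlier results of these data known. Of the 10, 9 were matched by FlyBase identifier to the 16845 rows of the count table. scb, the alphaPS3 subunit, was not matched by its current FlyBase identifier and has no value here. Older symbols and identifiers were not searched, so this does not show that its reads are missing from the count table. The RNA came from the terminalia, the genital and anal structures, of single male pupae of genotype yw;+;+, with 4 libraries from 4 pupae at 24 hr after puparium formation (APF) and 4 libraries from 4 pupae at 28 hr APF. Both groups share the genotype and sex and differ in age by the labels. The study describes the terminalia as easy to dissect at 28 hr APF, and a difference in dissection cannot be told apart from age here. The libraries held between 24534188 and 35795240 counted reads. The levels below are in rpkm, reads on a gene per kilobase of its exons and scaled by the total count of its library, and the values of the 4 libraries of a time point are given in the order of replicates 1 to 4.

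An integrin is a pair of 1 alpha and 1 beta chain. Outside the cell the pair binds laminins and other matrix proteins, and inside the cell the short beta tail binds talin, the product of rhea, which also binds actin and recruits vinculin. A complex of integrin-linked kinase (Ilk), PINCH (stck) and parvin joins the same sites. In Drosophila, the betaPS chain made by mys pairs with alphaPS1 (mew) or alphaPS2 (if), and these receptors are known for holding the basal faces of the wing epithelia together and for attaching muscles to tendon cells.

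The integrin genes and their linkers were measured at similar levels at 24 hr and 28 hr APF. mew, encoding alphaPS1, was 1.16-fold higher at 28 hr APF, and Itgbn, at the lowest level of all 9, was 2.39-fold higher. The other 7 genes did not pass the test, with log2 fold changes between -0.09 for stck and 0.17 for mys. Of the 9 genes tested, 2 were therefore called higher, and 0 were lower, at an adjusted p-value under 0.05 (quasi-likelihood F-test of edgeR, Benjamini-Hochberg adjusted over all genes), where 15.6% of all 11232 tested genes were called higher and 17.3% lower. At an unadjusted p under 0.05, and in DESeq2, 0 were lower as well, with the shares of all genes for these not given here. The call for Itgbn rests on 5 to 28 reads a library and on a filter that it passed in 1 of 4 libraries at 24 hr APF and in 4 of 4 at 28 hr APF. Without replicate 2 or replicate 4 at 24 hr APF the count called was 1 of 9. The median log2 fold change of the 9 was 0.05, against 0.004 over all tested genes. Of the 9, 6 changed by less than 0.1 on the log2 scale in either direction, against 33.2% of all tested genes. The libraries of the time points did not overlap for 2 of the 9, against 34.4% of all tested genes. The genes behind these shares were not matched to the 9 for level, and the part of level in the comparison was not tested. Bulk RNA does not tell apart fewer cells of a type and less RNA per cell.

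**Figure D1:**
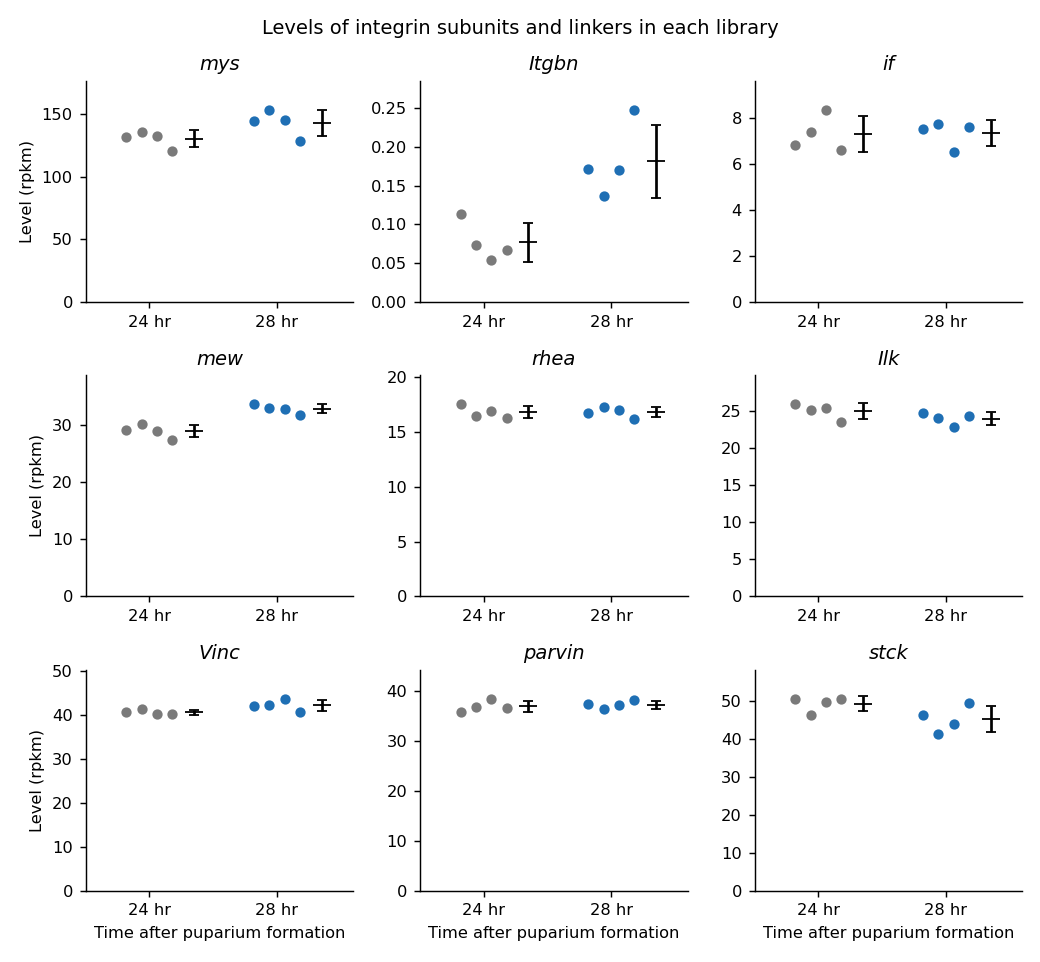
Level in rpkm (vertical axis, from 0) of each of the 9 matched genes in the 4 libraries at 24 hr APF (grey points) and the 4 libraries at 28 hr APF (blue points), in the order of the replicate numbers; black bars give the mean and SD. The time points do not overlap for mew and Itgbn and overlap for the other 7 genes.

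mys (FBgn0004657) encodes betaPS, the beta chain shared by the alphaPS1 and alphaPS2 receptors. It lies on chromosome X of the BDGP6 assembly from 8061645 to 8070237 and shares no exon base with another gene in that annotation. Its level was 131.6, 136.1, 133.0 and 120.8 rpkm at 24 hr APF and 144.2, 153.5, 145.5 and 128.3 rpkm at 28 hr APF. Of the 4 libraries at 28 hr APF, 3 lay above every library at 24 hr APF, and replicate 4 lay within their range. The mean went from 130.4 ± 6.70 to 142.9 ± 10.5 rpkm (SD, n = 4 each). The log2 fold change was 0.17 (standard error 0.06, 95% interval 0.04 to 0.29, adjusted p = 0.0535 from the same edgeR test), which did not pass the threshold. The gene lay near the threshold, and its side of it depended on the method: it passed in DESeq2 (adjusted p = 0.0281), with the replicate number as a block (0.0258) and without replicate 4 at 28 hr APF (log2 fold change 0.21, adjusted p = 0.0064), and it did not pass in the 7 fits that left out another library, with adjusted p-values of up to 0.166. At 28 hr APF mys stood above 96.6% of all genes with a length, and it was the most abundant of the 9 at both time points.

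Itgbn (FBgn0010395) encodes betanu, the other beta chain of the fly, known for its part in the clearance of dying cells by phagocytes. It lies on chromosome arm 2L from 21053033 to 21058044. It shares 8.65% of its exon bases with another gene on the same strand and 10.1% with one on the opposite strand. Reads on Itgbn numbered 12, 6, 5 and 8 at 24 hr APF and 18, 13, 17 and 28 at 28 hr APF, so that every library at 28 hr APF lay above every library at 24 hr APF. As levels, these were 0.0768 ± 0.0255 and 0.181 ± 0.0470 rpkm (SD, n = 4 each), against 130.4 and 142.9 rpkm for mys. The log2 fold change was 1.25 (standard error 0.34, adjusted p = 0.0164). Itgbn entered the test through the 28 hr APF libraries: all 4 of them exceeded the 0.326 CPM (reads per library, scaled by its total count) that the filter asked for, and 1 of 4 did at 24 hr APF, so a difference in this direction was favored by the filter. With no filter on low counts the adjusted p was 0.0404. The call was lost without replicate 2 at 24 hr APF (adjusted p = 0.0507), without replicate 4 at 24 hr APF (0.0519) and without replicate 4 at 28 hr APF (0.054).

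mew (FBgn0004456) encodes alphaPS1, which in the fly binds laminins. It lies on chromosome X from 13214409 to 13258490 and shares 2.06% of its exon bases with another gene on the same strand. Its level was 29.1, 30.1, 29.0 and 27.4 rpkm at 24 hr APF and 33.6, 33.0, 32.9 and 31.8 rpkm at 28 hr APF. All 4 libraries at 28 hr APF lay above all 4 at 24 hr APF, as did those of 13.2% of all tested genes. The mean rose from 28.9 ± 1.12 to 32.8 ± 0.744 rpkm (SD, n = 4 each), by 13.5%, with a log2 fold change of 0.22 (standard error 0.04, 95% interval 0.13 to 0.30, adjusted p = 0.00174). The call held whichever of the 8 libraries was left out, with log2 fold changes between 0.196 and 0.232.

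if (FBgn0001250) encodes alphaPS2, which binds matrix ligands such as tiggrin and thrombospondin and is best known from muscle. It lies on chromosome X from 16752189 to 16783434. Its level was 6.82, 7.41, 8.36 and 6.60 rpkm at 24 hr APF and 7.52, 7.73, 6.53 and 7.61 rpkm at 28 hr APF. The time points overlapped, and the lowest library of all was replicate 3 at 28 hr APF. The log2 fold change was 0.04, with a 95% interval from -0.12 to 0.20 (adjusted p = 0.69). The highest library was replicate 3 at 24 hr APF. It was also the highest of its time point in fat body markers, with a summed level of 57.0 rpkm against 14.4 to 23.3 rpkm in the other 3. In muscle markers it was the highest as well, at 441 rpkm against 332 to 391 rpkm. The same library was also the highest in tendon markers, at 221 rpkm, and in neuron markers, at 11.7 rpkm. At 28 hr APF, if was highest in replicate 2, which had the lowest fat body sum, at 11.5 rpkm. Muscle markers were highest there in replicate 1, at 376 rpkm. Without replicate 3 at 24 hr APF the log2 fold change of if was 0.10 and the adjusted p from the edgeR test 0.254. The part of fat body, muscle, tendon or nerve cells in the level of if was not tested. if had a lower level than mew in every library: mew made up between 77.6% and 83.4% of the summed rpkm of mew and if. The summed level of mys and Itgbn was between 3.26 and 3.77 times that of mew and if. This figure leaves out scb and the alpha subunit genes ItgaPS4 and ItgaPS5, which are given below at low levels.

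Among the linkers, rhea and Vinc encode talin and vinculin, the proteins that connect the beta tail to actin. rhea (FBgn0260442, chromosome arm 3L from 8545001 to 8574409) had a level of 17.5, 16.5, 16.9 and 16.3 rpkm at 24 hr APF and 16.8, 17.3, 17.0 and 16.2 rpkm at 28 hr APF. The means of 16.81 ± 0.549 and 16.82 ± 0.454 rpkm (SD, n = 4 each) were closer to each other than the libraries of either time point, and the log2 fold change of 0.03 had a 95% interval from -0.06 to 0.12 (adjusted p = 0.583). Vinc (FBgn0004397, chromosome X from 2214347 to 2222567) had a level of 40.6, 41.3, 40.0 and 40.1 rpkm at 24 hr APF and 41.9, 42.3, 43.6 and 40.5 rpkm at 28 hr APF. Although 3 of the 4 later libraries lay above all earlier ones, the log2 fold change of 0.09 did not pass the threshold (95% interval -0.005 to 0.178, adjusted p = 0.135). Vinc had the lowest spread between pupae of the 9 genes at 24 hr APF, with an SD of 1.48% of its mean.

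The genes of the Ilk, PINCH and parvin complex showed no change past the threshold. Ilk (FBgn0028427, chromosome arm 3L from 21216901 to 21219240), a kinase-like scaffold that binds both partners, had 26.0, 25.2, 25.5 and 23.5 rpkm at 24 hr APF and 24.8, 24.2, 22.9 and 24.4 rpkm at 28 hr APF. The time points overlapped, and its log2 fold change was -0.03 (95% interval -0.12 to 0.06, adjusted p = 0.645). parvin (FBgn0052528, chromosome X from 19746041 to 19748458), an actin-binding protein, had 35.7, 36.7, 38.4 and 36.6 rpkm at 24 hr APF and 37.2, 36.2, 37.2 and 38.1 rpkm at 28 hr APF. All 4 later values lay inside the range of the earlier ones, with a log2 fold change of 0.05 (95% interval -0.04 to 0.13, adjusted p = 0.391). In the annotation 7.88% of the exon bases of parvin are shared with a gene on the same strand and 14.6% with an antisense RNA or another gene on the opposite strand, and the sources used here do not say whether reads were counted by strand. stck (FBgn0020249, chromosome arm 3R from 8356978 to 8359964) encodes PINCH, an adaptor made of LIM domains. Its level was 50.6, 46.4, 49.9 and 50.7 rpkm at 24 hr APF and 46.4, 41.5, 44.1 and 49.6 rpkm at 28 hr APF. It had the lowest fold change of the 9, with 2 of the 4 later libraries below all earlier ones, and a log2 fold change of -0.09 (95% interval -0.22 to 0.04, adjusted p = 0.255).

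**Figure D2:**
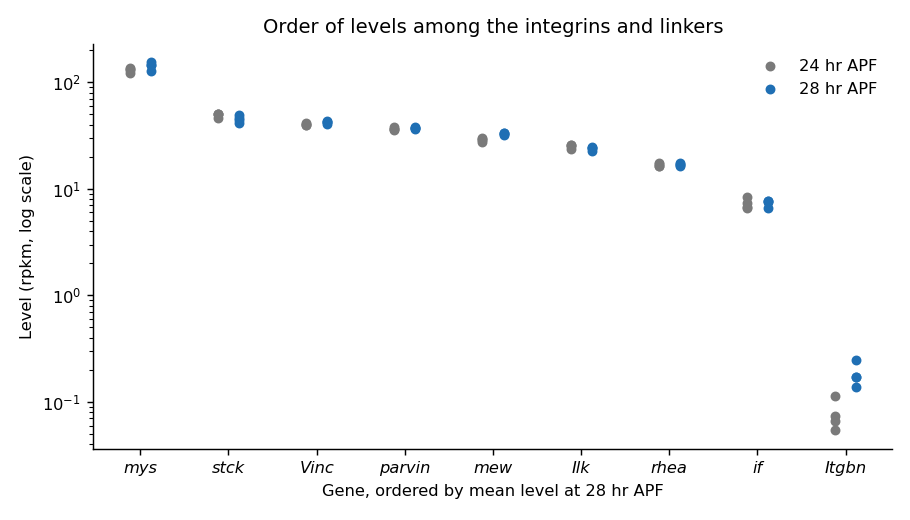
Level in rpkm on a log scale of the 9 genes, ordered from left to right by mean level at 28 hr APF, with 1 point per library (grey, 24 hr APF; blue, 28 hr APF). mys lies above the other 8 genes in every library, Itgbn lies below them, and the 7 genes between lie from 6.53 to 50.7 rpkm.

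By mean level per exon length, the genes were ordered mys, stck, Vinc, parvin, mew, Ilk, rhea, if and Itgbn at both time points. mys stood 2.64 times above stck at 24 hr APF and 3.15 times at 28 hr APF. At 24 hr APF no 2 neighbors in this order overlapped between libraries. At 28 hr APF, stck and Vinc did, at 45.4 ± 3.45 and 42.1 ± 1.27 rpkm (SD, n = 4 each), and stck was the higher of the pair in 3 of 4 libraries. The order of genes depends on the lengths used: when only the longest transcript was counted as length, Ilk was at 30.8 and mew at 30.1 rpkm at 24 hr APF, which turned their order, while at 28 hr APF they were at 29.6 and 34.2 rpkm. The 3 genes of the Ilk complex were not equal in level, since in each library parvin lay between Ilk and stck.

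Ratios between genes within a library do not depend on how libraries are scaled to each other. Of 9 such ratios, 0 passed the threshold in a two-sided exact permutation test over the 70 assignments of the 8 libraries after Benjamini-Hochberg adjustment, and 1 had an unadjusted p under 0.05. The smallest p the design allows is 0.0286, so that at least 6 ratios at that p would have been needed for any to pass. The ratio of Ilk to mys was 0.192 ± 0.00547 at 24 hr APF and 0.169 ± 0.0156 at 28 hr APF (SD, n = 4 each, exact p = 0.0571, adjusted p = 0.129). The ratio of rhea to mys was 0.129 ± 0.00644 and 0.118 ± 0.00590 (SD, n = 4 each, exact p = 0.0571, adjusted p = 0.129), and that of if to mew was 0.252 ± 0.0245 and 0.224 ± 0.0179 (SD, n = 4 each, exact p = 0.0571, adjusted p = 0.129). In these 3 ratios the lower mean was at 28 hr APF and the time points overlapped. The ratio of mew to mys was 0.222 ± 0.00381 and 0.231 ± 0.0138 (SD, n = 4 each, exact p = 0.343, adjusted p = 0.386). Only the ratio of Itgbn to mys did not overlap between the time points (exact p = 0.0286, adjusted p = 0.129), and it rests on the few reads of Itgbn given above. Vinc had 2.41 ± 0.0881 times the level of rhea at 24 hr APF and 2.50 ± 0.0506 times at 28 hr APF (SD, n = 4 each, exact p = 0.2, adjusted p = 0.3). The ratios within the Ilk complex, Ilk to parvin and Ilk to stck, had adjusted p-values of 0.3 and 0.429 in the same exact test.

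**Figure D3:**
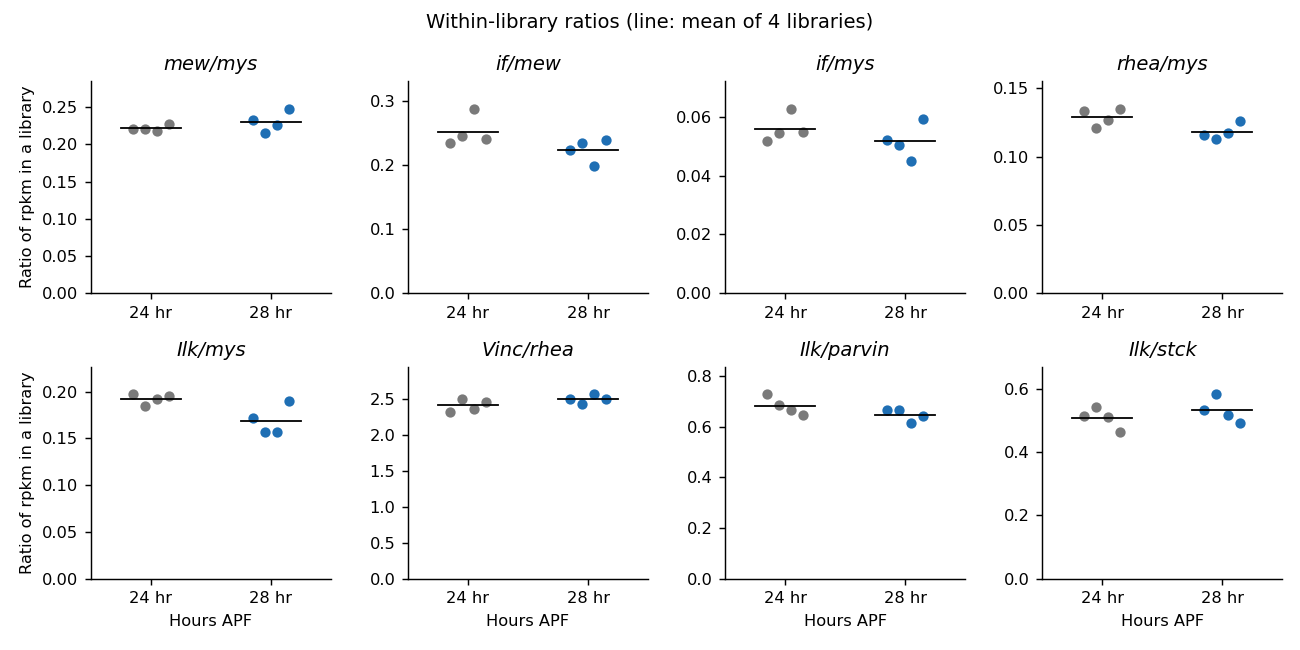
Ratio of rpkm values within a library (vertical axes, from 0) for 8 pairs of genes, with 1 point per library (grey, 24 hr APF; blue, 28 hr APF) and a line at the mean of 4 libraries; the pair Itgbn/mys is left out for its few reads. The time points overlap in all 8 panels, as for Ilk/mys, where the means are 0.192 and 0.169.

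The matrix ligands of these receptors were described beside them from a list of 6 genes, and 5 of the 6 rose and 0 fell by 28 hr APF, where 15.6% of all tested genes rose. This list and the other lists were chosen with earlier results of these data known, so such counts describe the listed genes only. The median log2 fold change of the 6 ligand genes was 0.36. LanB1, the laminin beta chain, was the exception, at 113.5 ± 6.62 and 113.6 ± 6.84 rpkm (SD, n = 4 each, adjusted p = 0.692). Tsp, encoding thrombospondin, a ligand of alphaPS2 at tendon cells, had 80.4, 93.2, 83.6 and 69.4 rpkm at 24 hr APF and 135.0, 138.4, 148.0 and 126.3 rpkm at 28 hr APF. The time points were well apart, and the log2 fold change was 0.78 (standard error 0.08, adjusted p = 6e-05). Tig, encoding tiggrin, another ligand of alphaPS2, was at a low level, with 0.444, 0.592, 0.751 and 0.545 rpkm at 24 hr APF and 1.27, 1.41, 0.836 and 0.965 rpkm at 28 hr APF. Its time points did not overlap either, and the log2 fold change was 0.97 (standard error 0.19, adjusted p = 0.00319). The laminin alpha chain gene wb rose from 3.90 ± 0.728 to 5.35 ± 0.753 rpkm and the laminin gamma chain gene LanB2 from 109.6 ± 6.43 to 121.5 ± 5.78 rpkm (SD, n = 4 each), with adjusted p-values of 0.0133 and 0.0196. The other laminin alpha chain gene, LanA, rose from 32.5 ± 1.92 to 37.5 ± 3.92 rpkm (SD, n = 4 each, adjusted p = 0.0386). The calls for LanA and LanB2 depended on single libraries: LanA kept its call only without replicate 1 at 24 hr APF or replicate 1 or 4 at 28 hr APF, with adjusted p-values of up to 0.0976 in the other 5 fits, and LanB2 lost it without replicate 4 at 24 hr APF (0.0502), replicate 2 at 28 hr APF (0.0636) or replicate 3 at 28 hr APF (0.0631). Without any 1 of these 3 last libraries the count was 3 of 6. Of the receptor genes given above, mew rose by a log2 fold change of 0.22, and if had 0.04. mys, which encodes their shared beta chain, had 0.17 and did not pass the threshold, and scb has no value here.

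**Figure D4:**
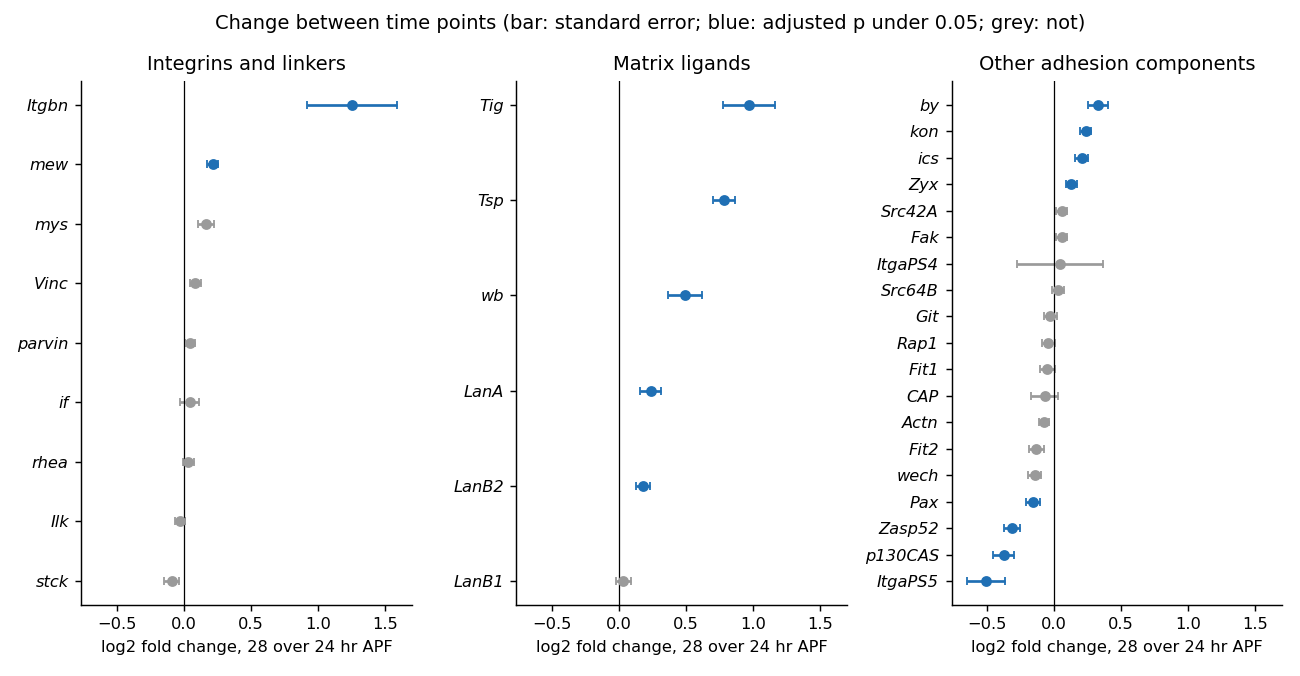
Log2 fold change between 24 hr and 28 hr APF (horizontal axis, positive where the level is higher at 28 hr APF) with its standard error for the 9 integrin and linker genes, the 6 matrix ligand genes and the 19 other adhesion genes; blue marks an adjusted p under 0.05 and grey marks genes that did not pass. Among the ligands 5 of 6 points are blue and above 0, and among the integrins and linkers 2 of 9 are.

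Of 19 other genes of integrin adhesion sites, 4 rose and 4 fell by 28 hr APF and 11 did not pass the test, where 15.6% of all tested genes rose and 17.3% fell. Their median log2 fold change was -0.04. The genes called higher were by, encoding the actin-binding protein tensin (log2 fold change 0.33, adjusted p = 0.00596), kon, a transmembrane protein known from the attachment of muscles to tendons (0.24, adjusted p = 0.00141), ics, the Ras suppressor that binds PINCH (0.205, adjusted p = 0.00716), and Zyx, encoding zyxin (0.13, adjusted p = 0.0367). The level of kon was between 39.0 and 42.3 rpkm at 24 hr APF and between 45.7 and 50.1 rpkm at 28 hr APF, with no overlap. Those called lower were p130CAS, a scaffold of focal adhesion signaling (log2 fold change -0.38, adjusted p = 0.00475), Zasp52, a scaffold that binds alpha-actinin (-0.31, adjusted p = 0.00217), ItgaPS5, encoding another alpha subunit (-0.51, adjusted p = 0.0205), and Pax, encoding paxillin (-0.155, adjusted p = 0.0382). The calls for by, kon, ics, p130CAS and Zasp52 held in all 8 fits that left out 1 library. Zyx held in 2 of them, those without replicate 3 or 4 at 24 hr APF, Pax in 3, those without replicate 4 at 24 hr APF or replicate 1 or 3 at 28 hr APF, and ItgaPS5 in 5, being lost without replicate 1 or 4 at 24 hr APF or replicate 3 at 28 hr APF, with adjusted p-values of up to 0.109, 0.106 and 0.0586. The call for Zyx was also lost with no filter on low counts (adjusted p = 0.0702). Without replicate 1 at 24 hr APF the count called was 5 of 19. With the replicate number as a block it was 6: Zyx (0.0534), Pax (0.0692) and ItgaPS5 (0.0623) lost their calls, and wech, encoding a protein that joins talin to Ilk, was called lower (0.0405). The kindlins, which bind the beta tail beside talin, did not pass: Fit1 had 22.7 ± 1.23 and 21.5 ± 1.27 rpkm and Fit2 22.8 ± 1.25 and 20.3 ± 1.09 rpkm at 24 hr and 28 hr APF (SD, n = 4 each), with adjusted p-values of 0.55 and 0.0911. The alpha subunit genes outside the named 10 were at low levels, ItgaPS4 at 0.165 ± 0.0382 and 0.168 ± 0.0533 rpkm and ItgaPS5 at 1.72 ± 0.252 and 1.19 ± 0.131 rpkm (SD, n = 4 each). The genes of this list with the highest mean levels were Zyx, at 66.9 ± 2.01 rpkm at 28 hr APF, Src42A, a Src family kinase, at 63.2 ± 2.86 rpkm, and Git, a scaffold that binds paxillin, at 52.8 ± 2.40 rpkm (SD, n = 4 each).

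Markers of the terminalia were present in every library, with a summed level of Abd-B, Poxn, cad, ems and Dr between 391.5 and 457.5 rpkm and Dr the highest of them at 122.0 ± 10.3 rpkm (SD, n = 4) at 28 hr APF. Muscle and tendon cells also use these receptors, and their markers moved between the time points. Beside the counts of marker genes below, 15.6% of all tested genes were called higher and 17.3% lower. Of 13 muscle genes tested, 7 were higher and 3 lower at 28 hr APF, and the summed level of the list was between 331.6 and 441.2 rpkm at 24 hr APF and between 318.3 and 375.6 rpkm at 28 hr APF, most of it Act57B, at 314.6 and 236.3 rpkm. The 7 that rose were Mlc2, a myosin light chain, from 20.4 to 42.3 rpkm, and TpnC73F, Mlc1, Tm2, up, sls and bt, which lay between 0.546 and 3.05 rpkm at 24 hr APF and between 1.42 and 11.2 rpkm at 28 hr APF. The 3 that fell were Act57B, Mef2, from 30.1 to 23.7 rpkm, and Mhc, the muscle myosin heavy chain, from 0.252 to 0.0719 rpkm. Of 6 tendon genes, which include Tsp, 5 were higher and 0 lower, and the summed level went from between 191.4 and 220.6 to between 279.2 and 295.0 rpkm. Tsp, counted among the ligands above as well, was the most abundant of the 6 and went from 81.6 to 136.9 rpkm. The next were slow, at 62.7 and 70.5 rpkm, and how, at 38.6 and 43.5 rpkm. Among the 6 was sr, the transcription factor that defines tendon cells, at 4.86 ± 0.666 and 10.6 ± 1.26 rpkm (SD, n = 4 each). The hemocyte list had 1 of 7 tested genes lower and a summed level between 84.1 and 92.4 rpkm and then between 73.8 and 78.4 rpkm, most of it from Ppn, at 50.6 and 41.1 rpkm, and crq, at 31.3 and 28.3 rpkm. The other hemocyte genes were low: Hml had 0.0552 and 0.0717, eater 0.0757 and 0.182, Pxn 2.29 and 2.67, NimC1 1.36 and 1.19, srp 2.73 and 1.68 and He 0.0943 and 0.0710 rpkm at 24 hr and 28 hr APF, and none of them passed the threshold, He not being tested. The fat body list had 1 of 5 lower and a summed level between 11.5 and 57.0 rpkm, with Lsp2 at 35.6 rpkm in replicate 3 at 24 hr APF and between 2.21 and 7.90 rpkm in the others of that time point, the tracheal list 2 of 4 higher and 1 lower, and the neuron list 6 of 6 higher with a summed level of at most 16.1 rpkm. The most abundant genes of the last 3 lists at 28 hr APF were Lsp2 at 12.6, verm at 128.3 and elav at 6.27 rpkm. The tracheal sum was between 310.4 and 408.0 rpkm at 24 hr APF and between 244.2 and 280.0 rpkm at 28 hr APF. In it verm rose from 87.2 and serp from 28.8 to 49.5 rpkm, Gasp fell from 228.9 to 88.7 rpkm, and trh had 0.131 and 0.115 rpkm. Of the exon bases of Lsp2 84.6%, and of crq 15.7%, are shared with a gene on the opposite strand. For elav, 27.9% are shared on the same strand. The part of muscle, tendon, blood, fat body, tracheal or nerve cells in the values of the integrin genes, linkers and ligands was not tested.

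The genes whose levels over the 8 libraries were most like that of mys, by Pearson's r of log2(rpkm + 1) among 6524 genes at 10 rpkm or more at either time point, were Map205 (r = 0.966), a microtubule-associated protein, egl (0.965), which takes part in mRNA transport along microtubules, and CG31195 (0.961). Those most like rhea were cv-2 (0.889), a BMP-binding protein, poe (0.863) and CG10428 (0.851). These values describe 8 points that share their libraries and time points, and with so many genes compared the highest values are high by choice.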

How the data were processed

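Poly-A RNA of single male pupal terminalia was sequenced in 4 libraries at 24 hr and 4 at 28 hr APF. The authors aligned 51-base reads of 3 lanes to dm3 with tophat 2.0.13 and deposited raw counts per gene over the unioned exons of FlyBase genes, made with bedtools and not normalized. Handling of strand, overlapping genes and multiple alignments is not given in the sources used here. Genes were matched by identifier to the Ensembl annotation on BDGP6, a later assembly, which gave names, exon lengths and coordinates; none were converted. Of the identifiers, 16431 had a length there; the 414 without one hold 8.07% to 8.44% of a library's counts.

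Counts were tested with edgeR 4.0.16 in R 4.3.3 (filterByExpr at a minimum count of 10, TMM factors, quasi-likelihood F-test, Benjamini-Hochberg adjusted p under 0.05). Standard errors are the size of the log2 fold change over the root of its F statistic, and 95% intervals use the fit's t quantile. rpkm and exact permutation tests on ratios were computed in Python 3.11.15 with pandas 2.3.3. The fit was tested on simulated counts with changes larger than those of most of the integrin and linker genes, so that test does not cover changes as small as theirs. Replicates of a time point all differed beyond sampling noise (lowest chi-square per df 7.36), so none was a duplicate.

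Members and lists were chosen with earlier results of these data known. Named were all members; of the ligand and adhesion lists, called genes and the 3 most abundant; the most abundant gene of each marker list; and the 3 genes most like mys and rhea. Further marker genes, wech, LanB1, Fit1, Fit2 and ItgaPS4 were added after their values were seen. scb, and wupA and btl of the marker lists, were not matched by current identifier, and older ones were not searched. Alternatives were DESeq2 1.42.0, other normalizations, no filter, a replicate block, a test against a fold of 1.5, leaving out each library, gene length, library size and a pseudocount.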

Additional observations from a re-analysis of the deposited data

Results flagged for a closer look

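In 54 groups of 4 libraries (levels, summed lists and ratios), 2 held a library far from the other 3, where chance gives about 2.7. The summed level of the matrix ligand genes at 24 hr APF was lowest in replicate 4, at 307.4 rpkm, while the other libraries had 350.3 to 356.0 rpkm. The summed level of the hemocyte markers at 28 hr APF was highest in replicate 3, at 78.44 rpkm, while the other libraries had 73.78 to 74.44 rpkm.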

How the results depend on the processing

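Tested against a fold change of 1.5 (edgeR's glmTreat), 531 genes were called, with 0 of the 9 integrin and linker genes, 0 of the 19 other adhesion genes and 0 of the 6 ligands. At an unadjusted p under 0.05 this test gave 1 (Itgbn), 0 and 2 (Tig and Tsp), and DESeq2, tested against no change, called 3, 9 and 5. The shares of all genes for these unadjusted and DESeq2 counts are not given here, so the counts describe the listed genes only. The test against a fold change of 1.5 asks a stricter question. The fits that each left out 1 library called from 1 to 2 integrin and linker genes, from 5 to 8 other adhesion genes, from 3 to 5 ligands and from 3121 to 3435 genes in all. In these fits the log2 fold change crossed 0 for genes that were not called: ItgaPS4 ranged from -0.068 to 0.239, CAP from -0.169 to 0.013, Src64B from -0.006 to 0.043 and LanB1 from -0.002 to 0.073. With a pseudocount of 1 rpkm, 0 of 9 ratios passed the threshold, as without it.

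Across genes, libraries of the same replicate number showed low correlations of their deviations from their time points, of both signs (r -0.16, 0.16, -0.22 and 0.14). For mys, replicate 4 was the lowest at both time points, at 120.8 and 128.3 rpkm. These values do not decide whether the numbers carry a pairing, and the main test used none. With the replicate block, 3175 genes were called, with 3 integrin and linker genes (mys added, adjusted p = 0.0258), 6 other adhesion genes (Zyx, Pax and ItgaPS5 lost, wech gained) and 5 ligands. Other normalizations changed no call among the integrin, adhesion and ligand genes, and no filter ended that of Zyx (adjusted p = 0.0702). mys also passed in DESeq2 (adjusted p = 0.0281). The sign-flip test of the ratios over same-numbered libraries has a smallest p of 0.125 and could not pass. Levels of the 9 integrin and linker genes moved by less than 1.5 times with another length or library size. At about 5 to 28 reads a library, depth limits what can be said of Itgbn; the other 8 genes had more reads in every library.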
